A study of Mus musculus with 34 samples.

Results

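Foxp3 binding was compared between effector and central regulatory T (Treg) cells at every peak of the deposited Foxp3 table. The comparison rests on 4 of the 34 samples of the series, 2 libraries of effector and 2 of central Treg cells, and on all 6396 Foxp3 peaks. No peak was selected by its values. The series measured the binding of Foxp3, BATF and IRF4 in mouse CD4 T cells by chromatin immunoprecipitation and sequencing, in which DNA crosslinked to a protein is recovered with an antibody and counted. All Foxp3 libraries were made from cells sorted fresh out of spleen and lymph nodes. The mice were C57BL6/J of the genotype Foxp3-IRES-hCD2, whose Foxp3-expressing cells carry human CD2 on their surface. Central Treg cells were sorted as CD4+hCD2+CCR7hiCD62LhiCD44lo and effector Treg cells as CD4+hCD2+CCR7loCD62Llo. For context, 2 bulk wild-type Treg libraries (CD4+hCD2+) and 2 bulk Treg libraries of the genotype Foxp3-IRES-hCD2.Batf-/- were used from the same table. The Batf allele is labelled without a cell type. Age, sex and the pooling of animals are not given in the sources used here.

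Foxp3 is a forkhead transcription factor that defines the Treg lineage and holds its suppressive program in place. Central Treg cells resemble naive T cells, express the homing receptor CCR7 and recirculate through lymphoid organs. Effector Treg cells have been activated through the T cell receptor, leave for tissues and sites of inflammation, and make suppressive products such as IL-10. BATF is an AP-1 family factor that pairs with JUN proteins and binds composite DNA elements with IRF4, and both are required for effector differentiation of Treg cells.

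The start sites under peaks that differed give a view of the bound DNA. Foxp3 belongs to the forkhead family, whose factors bind GTAAACA, and it can also bind repeats of TTTG. A start site window ran from 250 bases before to 50 bases after a RefSeq start site (GRCm38.p6, the assembly of mm10). Of the 473 Foxp3 peaks that overlapped such a window, 13 were higher and 9 lower in effector cells. The bases before the start site that lay under the peak are printed for 5 genes with higher and 2 genes with lower binding, chosen because the genes return in the results or, at Casp4 and Cxcl10, because the stretch holds matches. Capitals mark matches, on either strand, to GTAAACA (forkhead), TTTGTTT (the T3 repeat), TGANTCA (AP-1), AGGAAGT (ETS), TGTGGTT (RUNX) or ATCAAAG (TCF/LEF).
Tigit, minus strand, chr16:43664185-43664434: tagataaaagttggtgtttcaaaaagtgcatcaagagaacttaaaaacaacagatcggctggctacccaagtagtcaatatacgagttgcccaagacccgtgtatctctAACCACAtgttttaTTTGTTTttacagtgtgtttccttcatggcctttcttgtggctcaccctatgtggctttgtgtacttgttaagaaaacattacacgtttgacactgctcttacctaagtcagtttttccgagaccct
Casp4, plus strand, chr9:5308599-5308848: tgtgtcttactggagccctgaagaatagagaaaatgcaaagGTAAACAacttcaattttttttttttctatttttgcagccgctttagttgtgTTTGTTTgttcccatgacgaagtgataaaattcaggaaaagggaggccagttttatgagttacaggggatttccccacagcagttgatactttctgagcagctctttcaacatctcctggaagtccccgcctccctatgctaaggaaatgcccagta
Cxcl10, minus strand, chr5:92348890-92349139: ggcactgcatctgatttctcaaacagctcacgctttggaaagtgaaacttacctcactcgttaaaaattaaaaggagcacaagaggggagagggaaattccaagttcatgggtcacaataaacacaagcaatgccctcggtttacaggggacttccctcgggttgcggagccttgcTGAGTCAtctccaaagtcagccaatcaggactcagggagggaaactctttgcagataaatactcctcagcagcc
Il2, minus strand, chr3:37126131-37126204: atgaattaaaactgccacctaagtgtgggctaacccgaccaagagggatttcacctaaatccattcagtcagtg
Ccr8, plus strand, chr9:120091883-120092069: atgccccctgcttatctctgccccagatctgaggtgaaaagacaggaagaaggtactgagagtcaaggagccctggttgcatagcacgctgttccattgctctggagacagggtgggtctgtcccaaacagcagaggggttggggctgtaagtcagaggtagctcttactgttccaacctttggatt
Satb1, minus strand, chr17:51833291-51833424: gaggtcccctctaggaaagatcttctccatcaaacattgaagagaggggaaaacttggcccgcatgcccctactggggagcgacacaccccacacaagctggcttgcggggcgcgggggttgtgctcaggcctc
Foxp1, minus strand, chr6:99266516-99266741: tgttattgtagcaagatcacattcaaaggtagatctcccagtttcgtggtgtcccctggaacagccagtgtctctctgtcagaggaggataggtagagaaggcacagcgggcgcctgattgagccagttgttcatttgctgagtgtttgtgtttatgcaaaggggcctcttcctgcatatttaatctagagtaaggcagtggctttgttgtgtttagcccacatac
Counted back from the start site, the printed Tigit stretch holds a RUNX match at bases -141 to -135 and a T3 match at -127 to -121. The Casp4 stretch holds a forkhead match at -209 to -203 and a T3 match at -157 to -151, and the Cxcl10 stretch an AP-1 match at -74 to -68. The other 4 stretches hold none of the 6 letter strings. Casp4, an inflammatory caspase, had values of 30.4 and 39.8 in the 2 effector and 12 and 9.64 in the 2 central libraries at this peak, and the chemokine Cxcl10 had 35.5 and 27.1 against 6.66 and 11.9. In both cases the 2 effector libraries were the higher ones. Over the full windows, TGANTCA occurred in 4 of the 13 under higher peaks, in 1 of the 9 under lower peaks, in 4.88% of the 451 under peaks not called and in 7.81% of all 32851 windows. TTTGTTT occurred in 4 of 13, 2 of 9, 11.8% and 9.82%, and GTAAACA in 2 of 13, 0 of 9, 8.43% and 3.65%. AGGAAGT occurred in 1 of 13, 2 of 9, 12.4% and 9.35%, TGTGGTT in 2 of 13, 0 of 9, 5.99% and 5.27%, and ATCAAAG in 0 of 13, 1 of 9, 4.21% and 3.73%. These matches describe the letters and are not measured sites. The windows under called peaks held a median of 6 (higher) and 8 (lower) CpG dinucleotides, close to the median of 7 over all windows, and those under peaks not called held 21.

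The deposited values are normalised reads per peak. The 4 libraries had between 164740 and 393310 reads in peaks, and 1 read was worth between 0.577 and 1.33 of a value. Library 1 of both groups was the shallower. Over all peaks the log2 values of the 2 effector libraries correlated at r = 0.858 and those of the 2 central libraries at r = 0.880. Across the groups r was between 0.337 and 0.375. These r are over 6396 peaks of 1 shared list and describe the libraries. Nothing in the labels says that replicates came from separate animals, so the p-values measure only the spread between these libraries. In pooled sorted cells, fewer cells with a bound site and less Foxp3 on the site in each cell cannot be told apart. The sort can be set against the sorted genes only through binding, since no expression was measured in these samples. Of 5 peaks at Cd44, 1 was higher in effector cells, and neither of the 2 peaks at Ccr7 was called.

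Foxp3 binding differed between the 2 Treg states at 1646 of the 6396 peaks. In limma's test on log2 of value plus 1, adjusted over all peaks, 958 peaks were higher in effector cells (15.0% of all peaks) and 688 were lower (10.8%), together 25.7%. Of the higher peaks 853 differed by at least 2-fold and 297 by at least 4-fold, and their median log2 fold change was 1.61. Of the lower peaks 533 reached 2-fold and 96 reached 4-fold, with a median of -1.29. Over all 6396 peaks the median was -0.01, a centre that the scaling of the deposited table sets, so a change common to most sites would not be seen. Higher peaks had a median value of 39.6 in effector and 11.6 in central cells, and lower peaks 18 and 46.3. In both directions the lesser group kept reads at nearly every peak: 34 peaks had 3 reads or fewer in both central libraries and 1 had so few in both effector libraries. Both effector libraries lay above both central libraries at 2022 peaks (31.6%) and below both at 2084 (32.6%). Without effector library 2 there were 577 higher peaks, and without one library at a time the lower peaks numbered between 418 and 453. Of the 958 higher peaks 456 and of the 688 lower peaks 272 were called in all 4 of these fits.

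**Figure D1:**
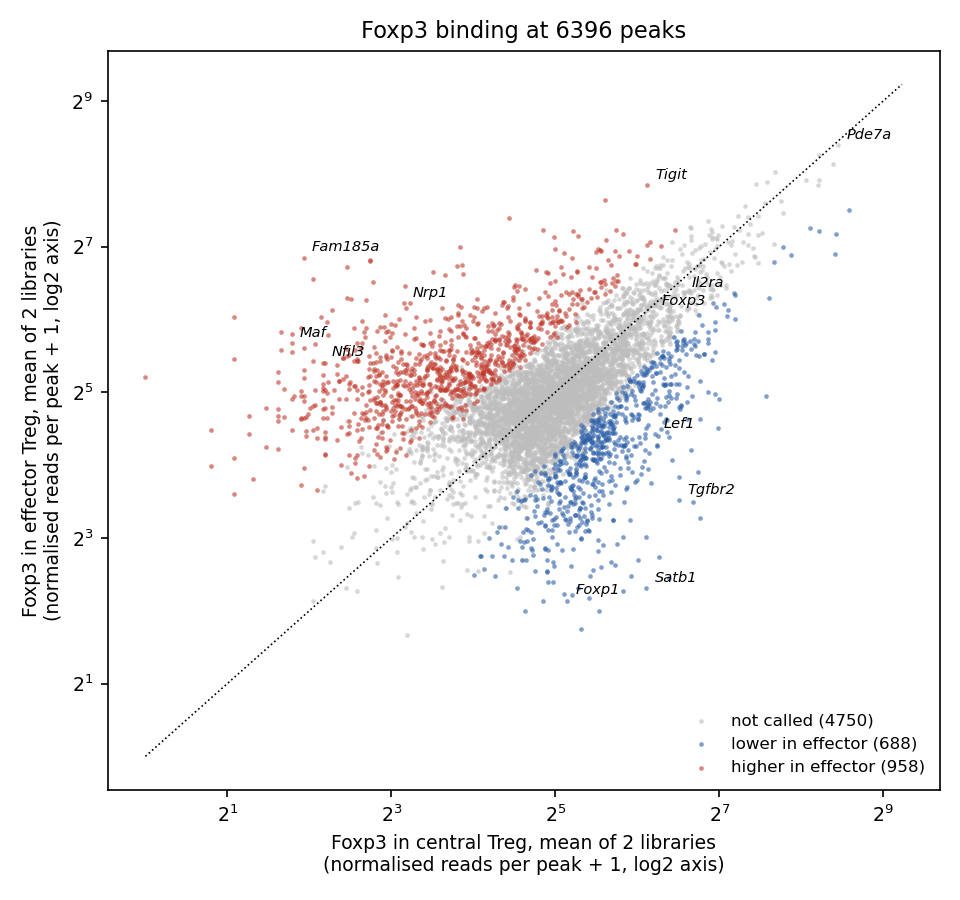
Mean normalised reads per peak plus 1 in the 2 central libraries (x, log2 axis) and the 2 effector libraries (y, log2 axis) for each of 6396 Foxp3 peaks, with 958 higher peaks in red, 688 lower peaks in blue and 4750 peaks not called in grey. The dotted line marks equal values, and the peak with the largest change of each named gene is labelled, with Fam185a far above the line and Satb1 far below it.

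The differing peaks lay mostly away from gene starts. Among the 502 peaks within 500 bp of a start site 13 were higher (2.59%) and 9 were lower (1.79%), against 15.0% and 10.8% of all peaks. The shares rose to 14.5% and 11.4% at 2000 to 10000 bp and to 17.8% and 12.6% beyond 50000 bp. Outside gene bodies 23.0% of 1854 peaks were higher and 16.4% lower, and inside them 11.7% and 8.45% of 4542. Strength moved with the direction. With the peaks split into 4 equal classes by mean value, 21.5% of the weakest class were higher and 8.07% lower, and 11.4% of the strongest class were higher and 14.1% lower. Peaks on chromosome 18 had no start site in the table used here and were placed only relative to gene bodies. On the other chromosomes start sites were incomplete as well, since only 17492 of 21900 protein-coding genes had one. Peaks of genes without one were measured to another start, so some count as farther away than they are. A peak inside Ext1, for example, was counted at 4164306 bp.

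Neighbouring sites went the same way. Of 204 pairs of adjacent called peaks within 10000 bp of each other, 191 (93.6%) had the same direction, and within 50000 bp 400 of 463 (86.4%). Peaks were named after the closest protein-coding gene body, up to 100000 bp away, and may act on another gene. By these names 1037 genes had a called peak. Of these 581 had only higher peaks, 394 only lower peaks and 62 had both.

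Among strong peaks, the largest gain in effector cells was an intragenic peak of Fam185a (chr5:21438443-21438843), 60.1 kb from Fgl2, which encodes a secreted suppressive product of Treg cells. Its values were 104 and 125 in the effector libraries and 2.66 and 2.97 in the central libraries, the latter being 2 and 4 reads. The log2 fold change was 4.91 ± 0.56 (SE, limma adjusted p = 7.65e-07). A peak in Mfap5 (chr6:122527598-122527998) had 72.2 and 114 against 4.00 and 2.22, a log2 fold change of 4.52 ± 0.41. A peak 33899 bp from Zwint (chr10:72620547-72620947) had 97.6 and 111 against 5.33 and 3.71, a change of 4.27 ± 0.36. At all 3 sites the groups were far apart and the central values were a few reads, so the size of the fold is imprecise. The other strong gains by the same rule included peaks in or near Iglon5 (log2 fold change 3.84), Cc2d2a (3.81), Acsbg1 (3.70), Mapre2 (3.30), Niban2 (3.19), Txlnb (3.15), Atf7ip (3.00) and Cd82 (2.95), a tetraspanin.

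Listed genes of effector Treg transcription factors held more higher than lower peaks. This list, like the others, was chosen with earlier results of these data known. Of 42 peaks assigned to 13 of the 23 listed genes, 20 were higher (47.6%) and 2 lower (4.76%), against 15.0% and 10.8% of all peaks, with a median log2 fold change of 0.74 against -0.01 over all peaks. Without effector library 2 the count of higher peaks was 13. The single peak assigned to Maf (chr8:115726788-115727188), 19894 bp from the gene that encodes c-MAF, an inducer of Il10, had 49.4 and 50.8 in effector and 2.66 and 2.22 in central cells. Its log2 fold change was 3.89 ± 0.43 (limma adjusted p = 5.44e-07). Central cells were close to the floor of 3 reads, and the groups did not overlap. The peak near Ahr (chr12:35562831-35563231), the aryl hydrocarbon receptor of gut Treg cells, had 55.8 and 60.6 against 6.66 and 2.97. A peak in Nfil3 (chr13:52976391-52976791), a basic leucine zipper factor, had 35.5 and 47.3 against 4.00 and 2.97. Their log2 fold changes were 3.42 ± 0.42 and 3.24 ± 0.33. Rora, which encodes the nuclear receptor RORα, was bound over a stretch of its gene body: 7 of its 8 peaks were higher and none lower. Rora thus gave 7 of the 20 higher peaks of the list. The most significant of them (chr9:69297815-69298215) had 68.4 and 80.2 in effector against 17.3 and 22.2 in central cells. Of the 7 calls at Rora 3 held under every alternative setting. Gata3, a factor shared by Treg and T helper 2 cells, had 3 peaks and none was called.

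Surface receptors and secreted products of effector Treg cells moved the same way. Of 65 peaks at 20 of 31 listed genes, 32 were higher (49.2%) and 1 was lower (1.54%), against 15.0% and 10.8% of all peaks. The median was 0.90, and between 22 and 25 were higher without one library at a time. With peaks assigned only within 20000 bp of a gene, 18 were higher, out of fewer assigned peaks. All 4 peaks assigned to Tigit, an inhibitory receptor for CD155, were higher. The peak over its start site, whose sequence is printed above (peak chr16:43664097-43664497), had 209 and 250 in effector and 59.9 and 77.1 in central cells, a log2 fold change of 1.73 ± 0.26 (limma adjusted p = 2.21e-05). Tigit was thus bound in both states, with a fold of 3.33 on the scale of value plus 1. At Il10, by contrast, central cells were near the floor. The single Il10 peak, 13800 bp from the gene (chr1:131038770-131039170), had 25.3 and 38.1 against 2.66 and 3.71, a log2 fold change of 2.95 ± 0.38. A peak in Il1rl1, which encodes the IL-33 receptor ST2, had 31.7 and 33.5 against 5.33 and 5.19. Pdcd1, the gene of PD-1, had a peak 2479 bp away with 44.3 and 50.2 against 12 and 12.6.

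Chemokine receptors of effector cells held 15 peaks at 6 genes, of which 5 were higher (33.3%) and 1 lower (6.67%), against 15.0% and 10.8% of all peaks, with a median of 0.74. The higher ones included peaks near Ccr1 (65.9 and 76.1 against 17.3 and 9.64) and Ccr8 (57.0 and 65.2 against 24 and 7.41). Ccr8 encodes a receptor typical of tissue and tumour Treg cells, and its central libraries differed from each other without reaching the effector values. The log2 fold changes were 2.36 ± 0.32 and 2.10 ± 0.41. Without effector library 1 there were 3 higher peaks, and without central library 2 there were 7.

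**Figure D2:**
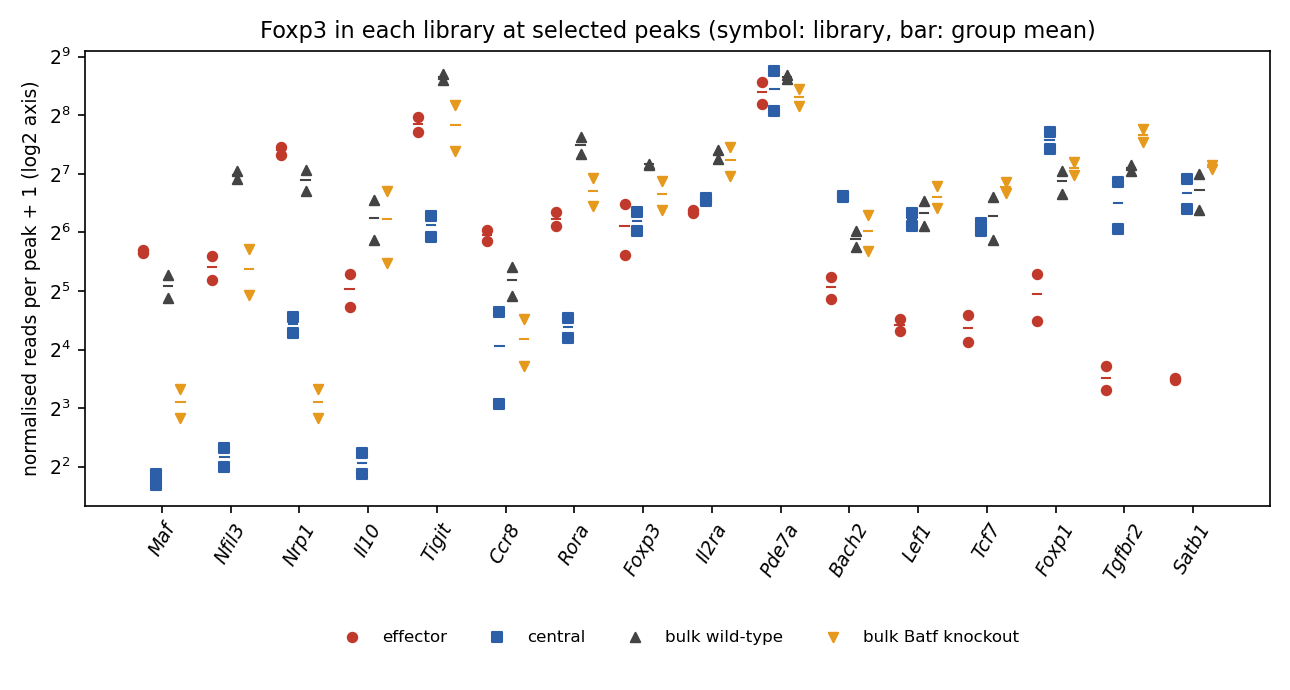
Normalised reads per peak plus 1 (y, log2 axis) in each library at 1 peak for each of 16 genes, with 2 libraries per group as symbols and the group mean as a bar. From Maf to Rora the effector libraries lie above the central ones, at Foxp3, Il2ra and Pde7a the groups overlap or lie close together, and from Bach2 to Satb1 the central libraries lie above the effector ones.

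The plot of each library sets 16 peaks side by side, together with bulk wild-type and Batf knockout cells. At the 7 effector peaks shown the bulk wild-type libraries lay between the sorted groups or above both. Values set across groups share the scaling of the deposited table.

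Satb1, the gene of a chromatin organiser needed for Treg precursors in the thymus and high in naive T cells, lost Foxp3 in effector cells at every peak. All 10 peaks assigned to it were lower, with log2 fold changes from -3.80 to -1.89, and each of these calls held under every alternative setting. At the peak 32.9 kb into the gene (chr17:51800210-51800610) the effector libraries had 5.07 and 2.88 and the central libraries 54.6 and 81.6, a log2 fold change of -3.80 ± 0.33 (limma adjusted p = 2.79e-08). At the strongest upstream pair, 70.8 and 73.3 kb before the start site, effector values were 15.2 and 12.7, and 10.1 and 10.4. Central values there were 90.6 and 121, and 83.9 and 119. Summed over the 10 peaks, the mean value was 73.2 in effector and 571 in central cells. The start site peak, with the sequence printed above, had 15.2 and 13.8 against 71.9 and 44.5 and was the member with the smallest change.

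Foxp1, a forkhead factor that keeps T cells quiescent and can occupy the same DNA as Foxp3, was bound at 21 peaks, of which 12 were lower and 2 higher. All 21 lay inside the Foxp1 gene body, also those before the start site whose sequence is printed above, which is an internal one. Lower peaks lay at 11 of the 12 sites between 175 kb before and 24.7 kb after that start site. The strongest of them (chr6:99388939-99389339) had 21.5 and 38.1 in effector and 170 and 209 in central cells, a log2 fold change of -2.68 ± 0.27 (limma adjusted p = 1.20e-07). The start site peak itself had 16.5 and 20.8 against 51.9 and 51.9. The remaining lower peak lay 243 kb downstream, on a BATF site, with a log2 fold change of -1.22 ± 0.27. The 2 higher peaks lay on either side of it, 216 and 274 kb downstream. The former (chr6:99050482-99050882) had 95.0 and 145 in effector and 22.6 and 44.5 in central cells, a log2 fold change of 1.85 ± 0.28. The latter (chr6:98992753-98993153) had 71.0 and 88.2 against 34.6 and 30.4, and its call was lost without effector library 2 (limma adjusted p = 0.0830). Both higher peaks lay on sites of BATF and IRF4, and BATF there was stronger in Treg than in Tconv cells, at 339 against 33.2 and at 420 against 73.1. Of the 12 lower peaks 3 lay on a BATF site. BATF at these was 67.2 in Treg against 44.5 in Tconv cells, 52.9 against 24.6, and 125 against 183.

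**Figure D3:**
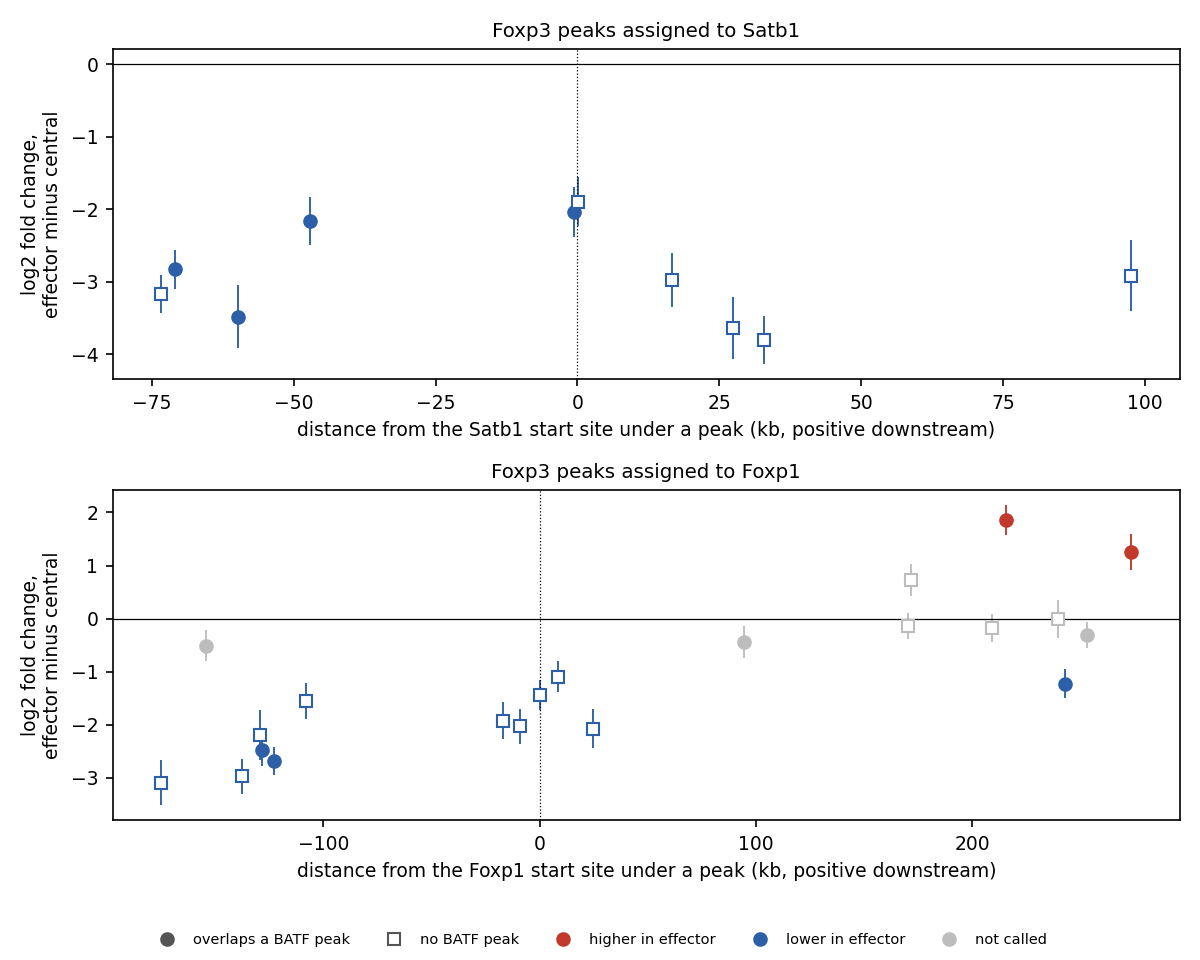
Log2 fold change of Foxp3, effector minus central (y, bars are the SE), at the 10 peaks of Satb1 (top) and the 21 peaks of Foxp1 (bottom) against the distance in kb from the start site under a peak, positive downstream. Filled circles overlap a BATF peak and open squares do not. All Foxp1 peaks lie inside the gene body, also those before the start used here. Every Satb1 peak lies below 0, and at Foxp1 11 of the 12 lower peaks lie before or within 24.7 kb after the start, while the other lower peak, at 243 kb, lies between the 2 higher ones at 216 and 274 kb downstream.

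Satb1 and Foxp1 belong to a list of transcription factors of naive and central T cells. Of its 83 peaks at 16 of 19 listed genes, 39 were lower (47.0%) and 10 higher (12%), against 10.8% and 15.0% of all peaks, with a median of -0.56. Between 32 and 35 were lower without one library at a time. Satb1 and Foxp1 carry most of this count: at the other 14 genes 17 of 52 peaks were lower (32.7%) and 8 higher (15.4%), with a median of -0.40. Without effector library 2 the higher count of the whole list was 5. A peak in Lef1 (chr3:131153947-131154347) had 19.0 and 21.9 in effector and 67.9 and 79.3 in central cells, a log2 fold change of -1.80 ± 0.26. The peak nearest Tcf7 by p (chr11:52309451-52309851) had 16.5 and 23.1 against 63.9 and 70.4, a change of -1.73 ± 0.28. Lef1 and Tcf7 encode the HMG-box factors LEF1 and TCF1 of naive and stem-like T cells. At both sites the groups were apart, with both central libraries above both effector libraries.

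Homing and egress genes were split by gene. Of 95 peaks at 17 genes 16 were lower (16.8%) and 9 higher (9.47%), against 10.8% and 15.0% of all peaks. The median was -0.04, and there were 9 lower and 6 higher without effector library 1, and 10 and 6 without central library 2. Both peaks of S1pr1, the egress receptor for sphingosine 1-phosphate, were lower, with log2 fold changes of -1.18 and -0.98. The largest loss among strong peaks lay outside this list, in Slc30a7 (chr3:115940502-115940902). There effector cells had 2.53 and 6.34 and central cells 75.9 and 89.0, a log2 fold change of -4.03 ± 0.35 (limma adjusted p = 2.79e-08). A peak in Dph5, also not listed, had 15.2 and 28.3 against 112 and 140. S1pr1 lies 225 and 219 kb from these peaks in turn, beyond the 100000 bp used for naming. It was found by a search of 300 kb for listed genes, and whether the peaks act on it was not tested. Within the list, Itgb1, the integrin β1 chain, went the other way from S1pr1: 3 of 4 peaks were higher, among them 1 with 35.5 and 41.5 against 4.00 and 8.16. At Itga4, which pairs with it, 3 of 12 peaks were lower and none higher, the lowest having 10.1 and 10.4 against 57.3 and 54.9. Cxcr4, the CXCL12 receptor, had 3 peaks and Cd69, a retention marker, had 6, and none of these was called.

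In the TGF-beta pathway 6 of 32 peaks were lower (18.8%) and 3 higher (9.38%), with a median of -0.08. On so few peaks these shares are not far from the 10.8% and 15.0% of all peaks. Tgfbr2, the ligand-binding receptor chain, held 4 of the lower peaks among its 9. The one 12058 bp from the gene (chr9:116187421-116187821) had 8.87 and 12.1 in effector and 65.3 and 115 in central cells, a log2 fold change of -2.95 ± 0.27 (limma adjusted p = 5.51e-08). Tgfbr3, a co-receptor, had a peak with 8.87 and 8.07 against 34.6 and 33.4. Itgav, an integrin chain that helps to activate latent TGF-beta, went the other way, with 3 of 7 peaks higher and none lower. One of these had 35.5 and 43.3 against 12 and 12.6. All 3 higher peaks of the list were at this gene. Without effector library 1 there was 1 higher peak.

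Genes of Treg identity did not move together. Of 60 peaks at 14 of 21 genes 17 were higher (28.3%) and 5 lower (8.33%), against 15.0% and 10.8% of all peaks, with a median of 0.21. Without effector library 2 the lower count was 1, without central library 1 it was 2, and without central library 2 or effector library 1 it was 3. With peaks assigned only within 20000 bp of a gene, 7 were higher and 4 lower, out of fewer assigned peaks. Neither of the 2 peaks at Foxp3 itself was called. The intragenic one (chrX:7583928-7584328) had 48.1 and 88.2 in effector and 63.9 and 80.1 in central cells, so the groups overlapped (log2 fold change -0.13 ± 0.28). The strongest peak in Il2ra, the high-affinity IL-2 receptor chain CD25 (chr2:11653356-11653756), had 79.8 and 82.5 against 91.9 and 95.6, a change of -0.21 ± 0.24 that did not pass. The strongest peaks of Ctla4 (71.0 and 83.6 against 62.6 and 66.0), Icos (81.1 and 81.9 against 73.3 and 55.6), Cd28 (53.2 and 64.0 against 49.3 and 57.1) and Izumo1r (53.2 and 55.9 against 58.6 and 58.6) did not pass either. Other sites of Icos, Ctla4 and Il2ra did, while neither peak of Izumo1r was called. Icos, a costimulatory receptor, had 5 of 10 peaks higher, among them 1 located 30261 bp from the gene with 36.7 and 45.0 against 9.32 and 8.16. Ctla4 had 2 of 5 higher and Il2ra 2 of 7 lower.

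The largest changes in this list lay at Nt5e and Nrp1. Nt5e, which encodes CD73, an enzyme that makes adenosine outside the cell, had 4 of 6 peaks higher and none lower. The one with the largest change, 53943 bp from the gene (chr9:88273266-88273666), had 31.7 and 31.1 in effector and 4.00 and 1.48 in central cells, the latter being 3 and 2 reads. The log2 fold change of 3.20 ± 0.55 is imprecise for that reason. Nrp1 is a surface receptor of thymus-derived Treg cells. A Nrp1 peak 44250 bp from the gene (chr8:128549726-128550126) had 160 and 176 in effector and 22.6 and 18.5 in central cells, a log2 fold change of 2.97 ± 0.28 (limma adjusted p = 7.63e-08). Its neighbour (chr8:128547360-128547760) had 79.8 and 68.1 against 10.7 and 5.19. Of the 9 Nrp1 peaks 3 were higher and 1 lower. The strongest peak in Ikzf2, the gene of the Ikaros family factor Helios, had 73.5 and 108 against 47.9 and 43.7. Its log2 fold change of 0.94 ± 0.31 (limma adjusted p = 0.0260) was lost without effector library 2, without either central library, with DESeq2 and without the trend of the spread. The adjusted p was then up to 0.291.

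Of the 10 strongest Foxp3 peaks, 3 were called, and all 3 were lower in effector cells. The strongest site of all, in Pde7a (chr3:19258507-19258907), had 290 and 380 in effector and 268 and 429 in central cells. Further strong sites, chosen because their change was small, lay in or near Rgs1 (196 and 287 against 197 and 333), Pde3b (181 and 213 against 169 and 261), Pde4b (175 and 212 against 161 and 214) and Cxcr4 (155 and 187 against 137 and 215). Pde7a, Pde3b and Pde4b encode phosphodiesterases, enzymes that break down cyclic AMP. Among the strong sites that were lower, 1 near Fbxo28 had 101 and 136 against 284 and 395.

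At 62 genes peaks went in both directions. Bach2, a repressor that keeps T cells from effector differentiation, had 9 peaks with 2 higher and 2 lower. A lower peak in its gene body (chr4:32387837-32388237) had 36.7 and 28.3 in effector and 97.2 and 96.4 in central cells, a log2 fold change of -1.56 ± 0.27. A higher peak further along the gene (chr4:32405030-32405430) had 39.3 and 52.5 against 20.0 and 19.3, a change of 1.17 ± 0.27 that was lost without effector library 2 (limma adjusted p = 0.0588). BATF at the lower peak was 113 in both Treg and Tconv cells, and at the higher one 219 in Treg and 25.4 in Tconv cells. The other higher Bach2 peak had 347 and 79.6, and the other lower one lay on no BATF peak. A Bach2 peak that was not called had BATF at 466 and 125. Under every alternative 0 of the 2 higher and 2 of the 2 lower Bach2 calls held. Ets1, a factor that binds with Foxp3 at many sites, also had peaks in both directions. The higher peaks in its body had 65.9 and 63.4 against 13.3 and 27.4, and 62.1 and 83.1 against 12 and 14.1, while a lower one had 19.0 and 31.1 against 75.9 and 77.8. All 3 higher Ets1 peaks overlapped a BATF peak and the 1 lower peak did not. Rasgrp1, an activator of RAS downstream of the T cell receptor, had 2 higher and 4 lower of 8 peaks.

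Several other genes had runs of higher peaks. Rbl2, a retinoblastoma family member, had 8 of 9 peaks higher, and its neighbour Chd9 5 of 10. Most of these were weak, the strongest Rbl2 peak having 68.4 and 87.7 in effector and 21.3 and 21.5 in central cells. Of the 8 Rbl2 calls 1 and of the 5 Chd9 calls 0 held under every alternative. Agfg1 had 7 of 10 higher with 4 that held, Ptpn22 7 of 11 with 1 that held, Atxn1 6 of 8 with 4 that held, and Alpk2 5 of 6, all of which held. Ptpn22 encodes a phosphatase that restrains T cell receptor signals. In the other direction Ms4a4a had 5 of 5 peaks lower, with 3 that held. The one with the largest change (chr19:11362102-11362502) had 24.1 and 34.0 in effector and 136 and 119 in central cells.

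The remaining lists were mixed, and their shares stand beside 15.0% higher and 10.8% lower over all peaks. T cell receptor and costimulatory signalling genes held 111 peaks with 21 higher (18.9%) and 19 lower (17.1%) and a median of -0.04. Without one library at a time, between 11 and 15 were higher and between 9 and 11 lower, the fewest higher without effector library 2 and the fewest lower without central library 2. Zap70, the receptor-proximal kinase, had a peak with 55.8 and 65.2 against 14.7 and 16.3, and Rasgrp1 one with 6.34 and 11.0 against 49.3 and 36.3. NF-kappaB and TNF receptor genes held 29 peaks with 8 higher (27.6%) and 1 lower (3.45%; median 0.48), with 5 higher without central library 1 or effector library 2. Nfkb1, the gene of the p105 and p50 subunits, had a peak with 74.8 and 73.8 against 16.0 and 23.0, and Tnfaip3, the inhibitor A20, one with 52.0 and 50.2 against 7.99 and 5.19. T helper cytokine and lineage genes held 34 peaks with 14 higher (41.2%) and 1 lower (2.94%; median 0.65), 7 of the 14 being those of Rora, and 9 were higher without effector library 1. The higher peak before the Il2 start site, printed above in part, had 40.5 and 52.5 against 6.66 and 7.41, a log2 fold change of 2.55 ± 0.38. Il2 encodes the growth factor that Treg cells take up and conventional T cells make.

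Genes of Foxp3 partner factors held 110 peaks with 37 lower (33.6%) and 16 higher (14.5%; median -0.26), against 10.8% and 15.0% of all peaks, again including Satb1, Foxp1 and Lef1, and 8 were higher without effector library 2. Beyond those, 3 of 5 peaks at Bcl11b, 3 of 6 at Ikzf1, 2 of 8 at Runx1 and the single peak at Runx3 were lower and none higher. In the BCL-2 family, which sets the threshold of apoptosis, 5 of 13 peaks were lower (38.5%) and 2 higher (15.4%; median -0.63), with 1 higher without central library 2 or either effector library. The lower ones included Bcl2 (10.1 and 17.3 against 70.6 and 59.3) and both peaks of the death inducer Bcl2l11, of which 1 had 10.1 and 6.92 against 54.6 and 47.4. The 2 higher peaks were both at Pmaip1, another member of the list, with log2 fold changes of 1.48 and 3.10. Cytokine receptors and their transducers held 65 peaks with 5 higher (7.69%) and 6 lower (9.23%; median -0.14), both below the shares over all peaks, and 2 or 3 were higher without one library at a time. Jak1, the kinase of many cytokine receptors, had a peak with 5.07 and 8.65 against 53.3 and 36.3, and Stat4 one with 29.1 and 39.2 against 10.7 and 2.97. AP-1, BATF and IRF genes held 21 peaks (5 or 23.8% higher, 3 or 14.3% lower, and between 2 and 4 higher without one library at a time) and the Nr4a, Egr and Dusp genes 18 (3 or 16.7% higher, 1 or 5.56% lower). No peak was assigned to the 8 B cell or the 10 myeloid markers. Of the 4 peaks at CD8 T and NK cell markers 1 was higher and 1 lower, and none of the 5 peaks at housekeeping genes was called.

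BATF and IRF4 had been measured in bulk Treg and Tconv (CD4+hCD2-) cells of the same reporter, which gives a readout that the effector and central libraries do not enter. Of the 6396 Foxp3 peaks 3081 overlapped a BATF peak and 2541 an IRF4 peak. Higher peaks lay on a BATF site in 51.3% of cases and lower peaks in 58.1%, so the overlap alone hardly separated them. The difference of BATF between Treg and Tconv cells did. At the 491 higher peaks on BATF the median BATF value was 107 in Treg and 22.9 in Tconv cells, and BATF was above its Tconv value at 478 of them (97.4%). At the 400 lower peaks on BATF the medians were 57.7 and 75.1, and BATF was above its Tconv value at 116 (29.0%). At the 2190 peaks on BATF that were not called the medians were 98.8 and 77.5, and the share was 63.0%. Over all 3081 peaks that share was 64.0%. Where BATF was over 4-fold higher in Treg cells, 287 of 426 Foxp3 peaks (67.4%) were higher in effector cells and 3 were lower. Where BATF was over 2-fold lower in Treg cells, 0 of 126 were higher and 81 (64.3%) were lower.

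IRF4 gave a like picture in its difference between Treg and Tconv cells but not in its overlap. Higher peaks lay on an IRF4 site in 52.7% of cases and lower peaks in 42.6%, against 39.7% of all peaks. IRF4 was above its Tconv value at 94.1% of the 505 higher peaks on an IRF4 site. The share was 14.0% of the 293 lower peaks on such a site and 55.9% of all 2541. Where it was over 4-fold higher in Treg cells, 101 of 137 Foxp3 peaks were higher in effector cells and 0 lower. Across peaks the Foxp3 difference between effector and central cells and the BATF difference between Treg and Tconv cells had Pearson r = 0.71 and Spearman rho = 0.65 (n = 3081). For IRF4 the values were 0.68 and 0.67 (n = 2541). Peaks are not independent, and the libraries of these assays came from the same tissues and were scaled in separate tables, so these are descriptions. Sites on both factors had 405 higher and 244 lower of 2143. Sites on BATF without IRF4 had 86 higher and 156 lower of 938, sites on IRF4 without BATF 100 and 49 of 398, and sites on neither 367 and 239 of 2917.

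**Figure D4:**
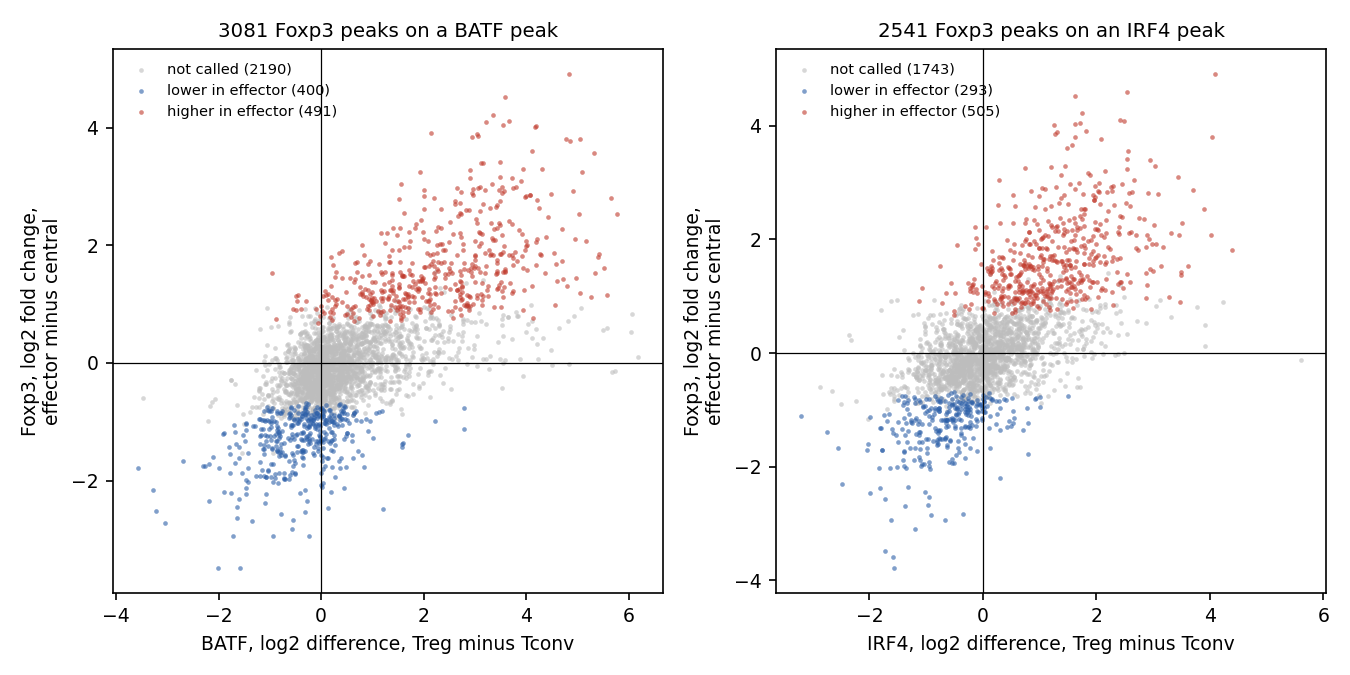
Foxp3 log2 fold change, effector minus central (y), against the log2 difference of BATF (left, 3081 peaks) or IRF4 (right, 2541 peaks) between bulk Treg and Tconv cells (x). Each point is 1 Foxp3 peak that overlaps a peak of the factor, coloured by its call, and the higher peaks in red lie mostly to the right of 0.

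Bulk Treg cells of Batf knockout mice gave the last comparison. These libraries share no sample with the effector and central groups. Among all peaks 250 were lower in the knockout than in bulk wild-type cells (3.91%) and 35 were higher (0.547%), together 4.46%. Of the 250, 206 (82.4%) were among the 958 effector-higher peaks and 0 among the effector-lower peaks. Read the other way, 206 of 958 effector-higher peaks (21.5%) were lower in the knockout, 0 of the 688 effector-lower peaks and 44 of the 4750 others. The median log2 fold change in the knockout was -0.58 at effector-higher peaks, 0.30 at effector-lower peaks and 0.08 at the rest. Effector-higher peaks on a BATF site were lower in the knockout in 141 of 491 cases (28.7%), and those without BATF in 65 of 467 (13.9%). Split by both factors, the excess lay at sites of BATF and IRF4 together, with 133 of 405 (32.8%). The share was 8 of 86 (9.30%) on BATF without IRF4 and 19 of 100 (19.0%) on IRF4 without BATF. On neither factor it was 46 of 367 (12.5%). The count of 250 moved with single libraries. It was 462 without knockout library 1, 108 without wild-type library 1 and 89 without wild-type library 2, and of these 301, 96 and 76 were effector-higher. The share of effector cells in bulk knockout Treg cells was not measured in these samples, so fewer effector cells and less Foxp3 per effector cell cannot be told apart.

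**Figure D5:**
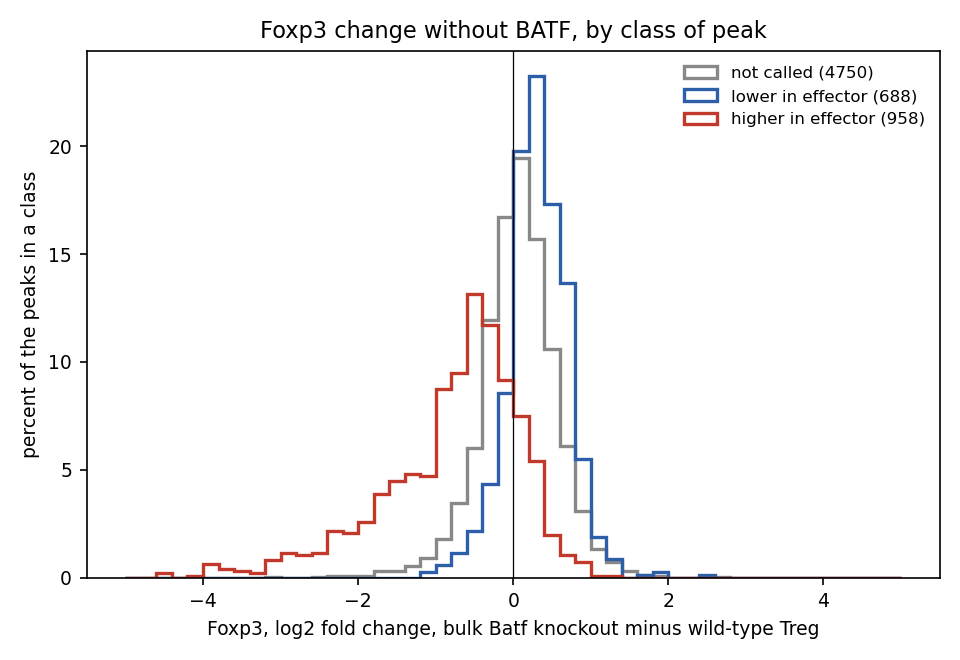
Distribution of the Foxp3 log2 fold change between bulk Batf knockout and wild-type Treg cells (x) as the percent of peaks in each class (y), for 958 peaks higher in effector cells (red), 688 lower (blue) and 4750 not called (grey). The red class extends to the left with a median of -0.58, and the blue class is centred to the right of 0 at 0.30.

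The difference between knockout and wild-type cells varied from site to site. The Nrp1 peak at chr8:128549726-128550126 had a mean of 118 in bulk wild-type and 7.55 in knockout cells, a log2 fold change of -3.81 (limma adjusted p = 3.61e-09). The Fam185a peak near Fgl2 had 59.3 and 2.54, and the Mfap5 peak 77.8 and 4.74. The peak near Ccr1 had 88.9 and 10.9, and the Maf peak 33.0 and 7.55. All of these lay on sites of BATF and IRF4. At the Ikzf2 peak the knockout difference, 91.9 against 19.0 (log2 fold change -2.32, limma adjusted p = 2.74e-05), was larger than that between effector and central cells. The Il10 peak, in contrast, had 75.3 in wild-type and 73.7 in knockout cells, where the 2 libraries were as far apart as 104 and 43.7 and the difference was not called. It lay on a BATF peak with 86.8 in Treg and 9.78 in Tconv cells. The peaks near Dusp4 (53.7 and 50.8) and Rbpj (69.8 and 54.8), both higher in effector cells and on BATF sites, did not pass the test in the knockout either. At Satb1 none of the 10 peaks was called in the knockout.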

How the data were processed

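The unit of the deposited Foxp3 table is signal: per the labels and values, the authors deposited normalised reads per peak, with values that step by 1 fixed amount in each library (tolerance 0.01). The submitters' processing notes name Bowtie2 2.4.1, MACS2 2.2.7.1, edgeR 3.38.4, DiffBind 3.12.0 and mm10, without roles or order. The step of each library whose reads were recovered lay within 3.00% of edgeR's TMM factor. The 8 Foxp3 libraries were fitted together with limma 3.58.1 (R 4.3.3) on log2 of value plus a pseudocount of 1, with the spread modelled as a trend of the level and two-sided p-values adjusted by Benjamini and Hochberg over 6396 peaks. Calls have an adjusted p under 0.05. On simulated effector and central data of 6396 peaks, 200 were changed and all peaks had the same dispersion. There 28.0% of 2-fold and 94.0% of 4-fold changes were recovered, and 2.40% of calls were false. In the real data 25.7% of peaks were called, a far larger share than was changed in the simulation. These rates therefore hold for the simulated setting and do not carry over to the real calls. BATF and IRF4 values come from their own tables, and peaks sharing at least 1 base were matched. Genes and start sites are from RefSeq, GRCm38.p6. Whether coordinates count from 0 or 1 is not settled. Of the peaks 94.8% were assigned to a gene. Because of the pseudocount, folds understate changes of weak peaks.

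Members and gene lists were chosen with earlier results of these data known. Peaks named are the 12 largest changes each way among called peaks at or above the 75th percentile of strength, up to 4 genes per list by p, the strongest peak of each identity gene, the 10 strongest peaks, genes with most called peaks, strong peaks with little change, and called peaks at start sites. The peaks of S1pr1, Gata3, Bcl11b, Ikzf1, Runx1 and Runx3 were named as list members after their values were seen. Some listed genes are not reported here by name, though list counts include them. Inputs, total depth and the second BATF table were not used here. Alternatives tried are DESeq2 1.42.0 and edgeR 4.0.16 on recovered reads, other scalings, filters, pseudocounts, a replicate block and leaving out each library.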

Additional observations from a re-analysis of the deposited data

How the results depend on the processing

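None of the named called peaks reversed its direction. At cytokine receptor genes the balance of 5 higher and 6 lower peaks turned to 8 and 7 with edgeR's TMM, and to 7 and 6 with its RLE factors and with a pseudocount of 5. At T cell receptor signalling genes 21 and 19 turned to 13 and 17 with peaks above the 25th percentile, at AP-1 and IRF genes 5 and 3 to 4 and 5 after quantile normalisation and 2 and 3 without effector library 2, and at Nr4a, Egr and Dusp genes 3 and 1 to 0 and 1 with genes within 20000 bp. Correlations with BATF and IRF4 and their levels were not recomputed under these settings. For peaks higher and lower in effector cells, main counts of 958 and 688, the counts were 1032 and 825 with edgeR's TMM, 1045 and 790 with its RLE factors, and 571 and 354 with DESeq2, all 3 on reads of 7 libraries without bulk wild-type library 1. They were 1185 and 991 with the 4 libraries alone, 1075 and 1062 after quantile normalisation, and 577 to 756 and 418 to 453 when 1 of the 4 libraries was left out. In the knockout, the 250 lower peaks became 165 after quantile normalisation and 89 to 462 when 1 library was left out. The 35 higher peaks became 12 with its 4 libraries alone, 17 with peaks above the 25th percentile only, 9 after quantile normalisation, and 19 to 109 when 1 library was left out. The causes of these shifts were not tested. Replicate numbers are shared across groups, but the deviations of libraries 1 and 2 correlated at only 0.139 between effector and central cells and 2 pairs are too few to pair them. With a replicate block there were 957 higher and 705 lower peaks, and 254 lower and 33 higher in the knockout.

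Of 216 called peaks named by the rule, 136 were called under all 15 alternatives. Among Foxp3 peaks above the median of their mean value, 67.6% of higher and 68.8% of lower peaks lay on a BATF peak, and 64.8% and 53.6% on an IRF4 peak. Count tests of the knockout were not run, since whole reads of bulk wild-type library 1 could not be told from its scaled values. Each group has 2 libraries with 164740 to 393310 reads in peaks, which limits calls at 2-fold and at weak peaks, and values near 3 reads per library make folds imprecise.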

Other observations

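The share of peaks higher in effector cells differed by chromosome, from 6.29% of 159 peaks on the X chromosome to 25.4% of 177 peaks on chromosome 18, against 15.0% of all peaks. The run of 5 higher peaks of 6 at Alpk2 lies on chromosome 18. The shares of lower peaks ranged from 6.12% on chromosome 7 to 15.4% on chromosome 17, where all 10 Satb1 peaks lie.

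The strong peak in Aim2, the gene of a cytosolic DNA sensor, had 247 and 366 in effector and 310 and 282 in central cells but a mean of 68.1 in bulk wild-type and 75.6 in Batf knockout cells. The peak near Atf3, a stress-induced AP-1 family factor, had 39.3 and 49.0 in effector and 17.3 and 28.2 in central cells, below the bulk wild-type mean of 177. The difference between sorted and bulk cells was not tested here.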
